A study of Aedes aegypti and Anopheles culicifacies with 47 samples.

Results

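*Anopheles culicifacies* is a night-biting malaria mosquito. This account describes 100 of its genes that were counted in brain and hardly at all in olfactory tissue. They were chosen by CPM, a gene's count scaled to 1000000 gene reads of its library. Of 14729 *Anopheles* genes listed, 14484 were readable in all 15 libraries, and 3774 of those had a mean under 2 CPM over the 8 olfactory libraries. The 100 with the highest mean CPM over the 7 brain libraries were taken. The brain level and the olfactory level are therefore what chose these genes, and neither is tested between the tissues.

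The brain libraries came from dissected brains of wild-type adult females aged 5 to 6 days, reared in a cycle of 12 h light and 12 h dark, with 2 libraries used at 6am, 3 at 12pm and 2 at 6pm. The olfactory libraries came from antennae, maxillary palps, proboscis and labium of females of the same cohort, with a single library used at 6am, 3 libraries at 12pm, and 2 each at 6pm and 12am. The study also holds *Aedes aegypti* libraries, not used here, and set out to compare the daily rhythm of these tissues in a day-biting and a night-biting mosquito. Of the 23 *Anopheles* libraries listed, 15 were used, and 8 were not analysed here, among them the brain libraries of 12am and replicate 1 of brain at 6pm. The design text calls the replicates biological, and how many females each library pooled is not given in the sources used here.

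In insects the brain holds the clock neurons that set daily behaviour, and the antennae and other head appendages keep peripheral clocks of their own. Clock proteins act on transcription, so the messenger RNA of a gene under clock control may rise and fall over the day. Genes active in brain but not in sensory appendages are commonly those of central neurons, neurosecretory cells and glia. None of this was read from the genes described here. The files pair *Anopheles* gene IDs with no names, the gene table used here covers *Aedes* only, and no sequence of these genes was used here. No role is therefore given to any ID, the tissue labels could not be checked against marker genes, and few IDs are named.

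The number of reads in readable genes was 3216123 to 5412168 per brain library and 1166422 to 2912402 per olfactory library. Reads outside annotated genes (the outside-gene share) took 56.0 to 68.8% of the reads of a brain library, with the highest share in 6am replicate 3 and the lowest in 12pm replicate 3. They took 53.8 to 69.2% in olfactory libraries, with the highest share in 12am replicate 2. Among brain libraries of 1 clock time, those of 6pm were the closest and those of 6am were far apart (a median difference per gene of 0.17 and 0.33 on the log2 scale over 6042 other genes at least as abundant in brain as the 100). In bulk tissue, fewer cells of a type and less RNA per cell cannot be told apart.

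The 100 genes formed a small part of the brain's RNA, and a few of them stood well above the rest. Their mean brain level was 24.9 to 221 CPM, with a median of 36.0 CPM and quartiles of 28.8 and 53.6 CPM. Of the 100 genes, 2 averaged over 200 CPM in brain, 3 more over 100 CPM and 26 between 50 and 100 CPM. The 10 most abundant held 26.3% of the summed mean level, and the 50 most abundant 69.2%. In each brain library every one of the 100 genes was counted, and the lowest count of any of them in any brain library was 15 reads. The median over the genes of their lowest count was 87.5 reads. Read counts depend on transcript length, which was not used here, so the order of these genes is an order of reads and not of transcripts.

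ACUA006873 had the highest mean brain level, at 221 ± 33.9 CPM (SD, n = 7). It had 219 and 166 CPM in the 6am libraries, 231, 241 and 186 CPM at 12pm, and 261 and 243 CPM at 6pm. In olfactory tissue it averaged 1.82 ± 1.48 CPM (SD, n = 8), from 31 reads in all. Its lowest brain library, 6am replicate 3, was still far above its highest olfactory library, 12am replicate 2 with 4.29 CPM.

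ACUA003979 came next at 204 ± 35.4 CPM in brain (SD, n = 7), against 1.79 ± 1.57 CPM in olfactory tissue (SD, n = 8). It had 187 and 196 CPM in the 6am brain libraries, 157, 255 and 172 CPM at 12pm, and 233 and 225 CPM at 6pm. Its highest and its lowest brain library were both of 12pm, so clock times overlapped. ACUA003996 averaged 133 ± 34.9 CPM in brain (SD, n = 7) and 1.83 ± 1.70 CPM in olfactory tissue (SD, n = 8). ACUA010885 averaged 129 ± 27.2 CPM in brain (SD, n = 7) and 1.52 ± 0.791 CPM in olfactory tissue (SD, n = 8). From ACUA003996 to ACUA010885 the step in brain was smaller than the spread of either over brain libraries.

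**Figure D1:**
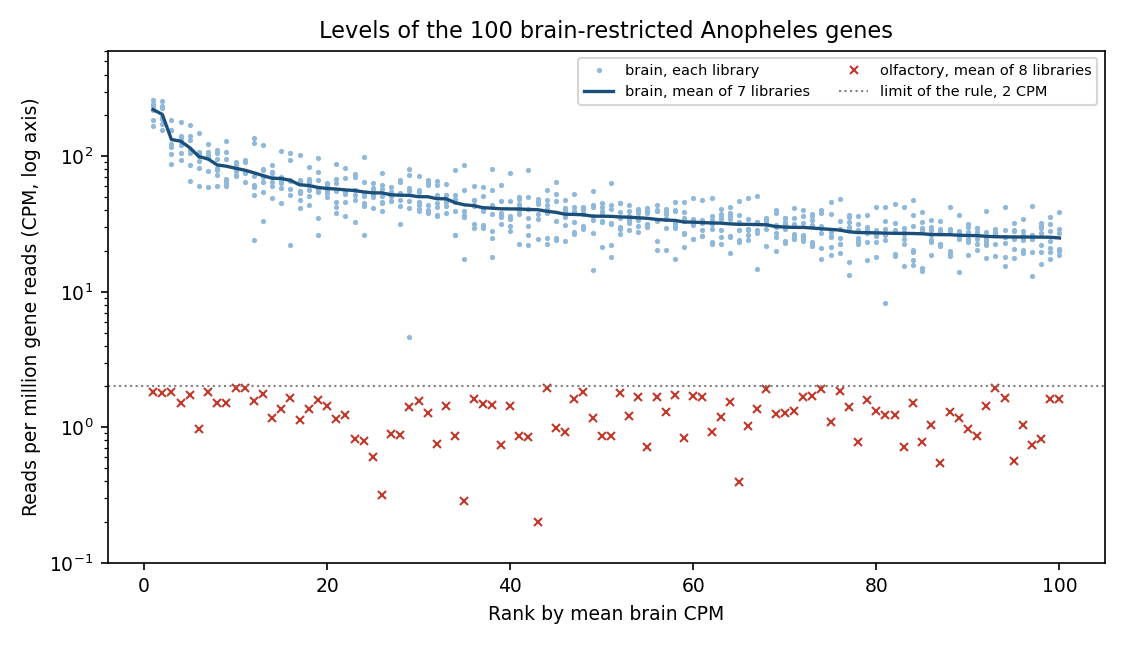
Each of the 100 genes is placed by its rank (horizontal axis) and its level in CPM (vertical log axis), with 1 dot per brain library, a line for the brain mean and a cross for the olfactory mean. The brain means run from 221 down to 24.9 CPM, all crosses lie under the dotted limit of 2 CPM by the rule, and 2 dots lie under 10 CPM, the lowest of them ACUA000078 in 6am replicate 3 at 4.66 CPM.

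The genes were scarce in olfactory tissue, but "restricted" holds for them only as the rule defines it. None of the 100 had 0 reads over all 8 olfactory libraries. Each had 4 to 35 olfactory reads in all, with a median of 19, out of 15542647 reads. Their mean olfactory level was 0.200 to 1.95 CPM, with a median of 1.31 CPM, and 31 were under 1 CPM. In at least 1 olfactory library, 89 of them reached 2 CPM or more. The mean level in brain was 13.1 to 202 times that in olfactory tissue, with a median of 34.3, and for all 100 genes the lowest brain library lay above the highest olfactory library. These ratios follow from the rule, and none is tested.

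Summed over the 100 genes, the brain libraries held 4746 ± 655 CPM (SD, n = 7) and the olfactory libraries 127 ± 70.0 CPM (SD, n = 8). In brain the sum was 4807 and 5899 CPM at 6am, 4074, 4910 and 3881 CPM at 12pm, and 4820 and 4828 CPM at 6pm. The 6am replicate 3 library was the highest and the pair of 6pm libraries nearly equal. These sums are not scaled between libraries. The TMM factors used for scaling further on were 1.11 in 6am replicate 3 and 0.876 in 12pm replicate 3, which would bring their sums closer. In olfactory tissue it was 205 CPM at 6am, 86.1, 67.0 and 108 CPM at 12pm, 90.4 and 133 CPM at 6pm, and 261 and 68.3 CPM at 12am. The olfactory library with the highest sum, 12am replicate 2, was also the one with the largest outside-gene share, at 69.2%. The 6am library, next by sum, had a share of 55.4%, toward the low end of this tissue. The part of that share in the sums was not tested. The other 12am library, with a share of 62.0%, was close to the lowest sum. The sums of 12am therefore spanned almost the whole range of this tissue.

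**Figure D2:**
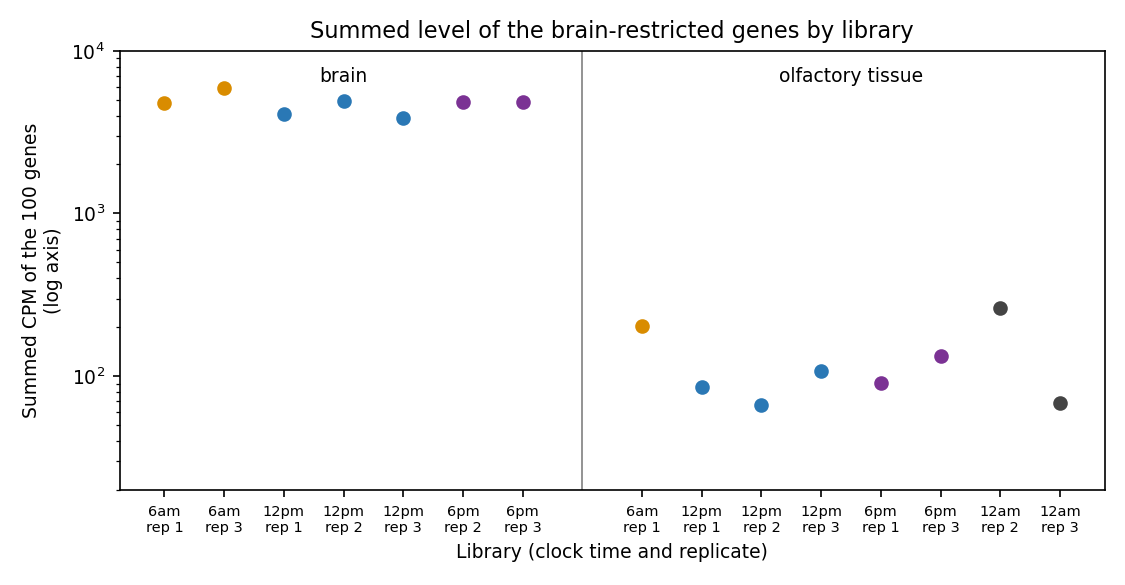
Summed CPM of the 100 genes (vertical log axis) is shown for each library, brain on the left and olfactory tissue on the right, coloured by clock time. The 7 brain libraries sit between 3881 and 5899 CPM and the 8 olfactory libraries between 67.0 and 261 CPM.

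The genes that led in brain did not hold the same share of the few olfactory reads, a description with no test. The 10 genes most abundant in brain took 23.7 to 28.2% of the reads of the 100 genes in brain libraries and 7.24 to 17.6% in olfactory libraries. The lowest shares were those of olfactory 12am replicate 2, at 7.24%, and 6pm replicate 3, at 8.33%. The limit of 2 CPM caps the olfactory mean of each gene, abundant or not, and so bears on these shares directly. Of the 100 genes, 89 had a read in the 6am library, 81, 69 and 89 at 12pm, 56 and 72 at 6pm, and 85 and 52 at 12am. In an olfactory library a count of 0 allows a level of up to 1.03 to 2.57 CPM (3 reads, counting error only), a span that includes the limit of the rule.

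Membership near the limits rests on few reads. At the lower end by brain level, ACUA027634 at rank 100 averaged 24.9 ± 7.27 CPM in brain (SD, n = 7), against 24.8 ± 10.6 CPM (SD, n = 7) for ACUA001447 at the next rank, which was left out. At the olfactory limit, ACUA002533 was inside with a mean of 1.95 CPM from 35 reads, and ACUA008358 was outside with a mean of 2.01 CPM from 27 reads. Pooled over the 8 olfactory libraries these were 2.25 CPM (exact Poisson 95% interval 1.57 to 3.13, counting error only) and 1.74 CPM (1.14 to 2.53). For 40 of the 100 genes the upper end of that interval reached 2 CPM. A further 69 genes as abundant in brain had an olfactory mean of 2 to 3 CPM.

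The choice of genes therefore moved with the limit more than with any brain library. With an olfactory limit of 1 CPM, 31 of the 100 were among the top 100, and with a limit of 5 CPM, 15 were. When every olfactory library had to be under 2 CPM, 11 were. The 31 and the 11 follow from the olfactory levels given above and are not separate results. With TMM-scaled CPM over all 15 libraries 78 were kept, with clock times weighted equally 85, and with medians of libraries 53. Leaving out 1 brain library kept 96 to 98 of them. Leaving out 1 olfactory library kept 88 to 97, except for 12am replicate 2, without which 60 were kept.

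Spread over the brain libraries was not used by the rule. The coefficient of variation (SD over mean) of CPM over the 7 brain libraries was 8.40 to 53.6% over the 100 genes, with a median of 25.2% and quartiles of 20.7 and 32.1%. Over the 6042 other genes at least as abundant in brain the median was 19.1%, with quartiles of 13.95 and 27.0%, and 21 of the 100 genes lay under that median. Those 6042 genes were not matched on level beyond that minimum, and the more abundant ones carry less counting error. With TMM-scaled CPM over the 7 libraries the medians were 21.6% for the 100 genes and 17.9% for the others. Within clock times the medians were 20.03% for the 100 genes and 15.9% for the others. The biological coefficient of variation that edgeR estimated within clock times, which sets counting error aside, had a median of 0.195 for the 100 genes and 0.192 for the others. This estimate is drawn toward a trend shared by all genes, so near-equal medians do not show that the spreads were alike. The part of counting error in the wider spread of the 100 genes was not tested. The highest brain library was at least 2 times the lowest for 60 of the 100 genes, at least 3 times for 16 and at least 5 times for 3. These ratios were not taken over the others, so the counts do not set the 100 genes apart. The coefficient of variation was over 50% for 2 of the 100 genes and for 3.97% of the others.

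The most even genes were ACUA005013 and ACUA007067. ACUA005013 had 59.3 and 63.4 CPM at 6am, 50.03, 62.7 and 53.3 CPM at 12pm, and 59.0 and 56.7 CPM at 6pm, a coefficient of variation of 8.40%. ACUA007067 had a coefficient of variation of 8.65% around a mean of 51.9 ± 4.49 CPM (SD, n = 7). In both, the libraries of all 3 clock times overlapped. The most variable genes were ACUA018716 and ACUA020636, at 53.6 and 52.0%.

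Some genes differed over 2-fold between libraries of 1 clock time, by CPM scaled over the brain libraries (TMM). These were 7 of the 100 between the 6am libraries, 5, 3 and 6 between pairs at 12pm, and 3 at 6pm. Such counts were not taken over the other genes, so they cannot be read as high or low. The median log2 difference was 0.37 at 6am (0.33 for the others at least as abundant). It was 0.33 to 0.35 at 12pm (0.21 to 0.26) and 0.17 at 6pm (0.17). ACUA000078 differed the most. ACUA000078, singled out after its values were seen, had 46.4 and 4.66 CPM in the 6am libraries, 81.1, 58.3 and 72.6 CPM at 12pm, and 55.2 and 41.6 CPM at 6pm. Its 6am replicate 3 library, with 15 reads, lay 17.4 times below its highest library, while 6am replicate 1 lay among the 6pm libraries. Its biological coefficient of variation, 0.644, was the highest of the 100.

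The next question was whether the genes differed between clock times in brain, which the rule did not use. The test was edgeR's quasi-likelihood test over 9908 genes, with Benjamini-Hochberg adjustment over all of them and a threshold of 0.05, and all 100 genes entered it. Values from here on are CPM after TMM scaling over the brain libraries, called scaled CPM, and log2 changes are from the fit. Over all tested genes the median log2 change was 0.0019 for 12pm against 6am and -0.018 for 6pm against 6am. Without TMM scaling these were -0.15 and -0.14 on the log2(mean CPM + 1) scale, and those of the 100 genes -0.41 and -0.23.

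Among 6am, 12pm and 6pm, 0 of the 100 genes passed, where 2.67% of all genes tested did. An unadjusted p under 0.05 was found for 17 of the 100, and for 17.2% of the others at least as abundant. DESeq2 called 3 of them, where it called 5.91% of all genes. These shares are near or under the background. The lowest adjusted p among the 100 was 0.0721, that of ACUA018716. The fitted range between the highest and the lowest clock time had a median of 0.44 on the log2 scale for the 100 genes and 0.37 for the others at least as abundant, and it was over 1 for 6 of the 100 and for 7.53% of the others.

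Against 6am, 1 of the 100 genes passed at 6pm, where 2.31% of all genes did, and it was higher at 6pm, where 1.82% of all genes passed as higher. At 12pm 0 passed against 6am, where 0.454% of all genes did, and for 6pm against 12pm 0 passed, where 1.57% did. The unadjusted p was under 0.05 for 11 genes at 6pm against 6am (11.6% of the others at least as abundant), for 22 at 12pm against 6am (22.1%) and for 6 at 6pm against 12pm (9.76%). DESeq2 called 2, 2 and 1 of the 100 genes in these comparisons, where it called 3.58, 3.89 and 2.34% of all genes. The 3 contrasts share libraries and are not independent. The counts were larger without 6am replicate 1. Then 11 of the 100 genes passed among the clock times, with 1189 of all 10144 genes then tested, and 18 passed at 12pm against 6am (1472 of all) and 5 at 6pm against 6am (617 of all). In that fit 6am replicate 3 alone stood for 6am.

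A p over the threshold does not show that a gene was level through the day, so the intervals are given too. The 95% interval of the log2 change lay within 2-fold in either direction for 67 of the 100 genes at 12pm against 6am, 67 at 6pm against 6am and 81 at 6pm against 12pm. It reached 4-fold for 2, 3 and 1 genes. The standard error of these changes had a median of 0.24, 0.26 and 0.23 on the log2 scale, over 2 or 3 libraries per clock time.

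ACUA018716 was the gene that passed at 6pm against 6am. It had 128 and 137 scaled CPM in the 6pm libraries, against 58.4 and 21.6 in the 6am libraries, and 58.7, 71.5 and 59.0 at 12pm. Both 6pm libraries lay above all others, and the higher 6am library was level with the lowest 12pm library. Its log2 change at 6pm against 6am was 1.72 (SE 0.37, 95% interval 0.88 to 2.55, edgeR adjusted p = 0.0474), and at 6pm against 12pm it was 1.07 (SE 0.32, edgeR adjusted p = 0.229). The call was close to the threshold. It was lost without either 6pm library (edgeR adjusted p = 0.216 without replicate 2 and 0.247 without replicate 3), without any 1 of the 12pm libraries (0.0715 to 0.115), without a filter on low counts (0.0555), with a mean of at least 50 counts (0.0571) and with the outside-gene share as a covariate (0.858). Its log2 change was 1.33 with the covariate and 1.67 to 1.77 in the others of these. Without 6am replicate 1 or 6am replicate 3 the log2 change was 2.64 or 1.19 and the call was kept. DESeq2 gave an adjusted p of 0.000163. Its line in the file of 6pm replicate 3 stood close before an overwritten stretch of text, and 6pm replicate 2, whose file had none near it, gave a similar value.

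The genes with the lowest p in the falling direction did not pass, and ACUA013362 was chosen after seeing its values. ACUA020636 had 28.4 and 25.5 scaled CPM at 6pm, against 53.8 and 73.0 at 6am, with 37.7, 43.1 and 20.8 at 12pm. Its libraries of 6pm and 6am did not overlap, and its log2 change between them was -1.23 (SE 0.31, 95% interval -1.91 to -0.55, edgeR adjusted p = 0.0700). ACUA013362 had 35.7, 39.3 and 20.1 scaled CPM at 12pm, against 53.6 and 77.2 at 6am, with 36.0 and 37.1 at 6pm. Its log2 change at 12pm against 6am was -1.03 (SE 0.27, 95% interval -1.62 to -0.44, edgeR adjusted p = 0.114). DESeq2 called ACUA020636 at 6pm against 6am (adjusted p = 0.0200) and ACUA013362 at 12pm against 6am (adjusted p = 0.0357). For ACUA020636 at 6pm against 6am, edgeR made a call without a filter on low counts (adjusted p = 0.0317). It also did so without 12pm replicate 3 (edgeR adjusted p = 0.0294). Without 6am replicate 1, where 1 library stood for 6am, the log2 change was -1.41 for ACUA020636 in this contrast. In that fit it was -1.23 for ACUA013362 at 12pm against 6am.

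**Figure D3:**
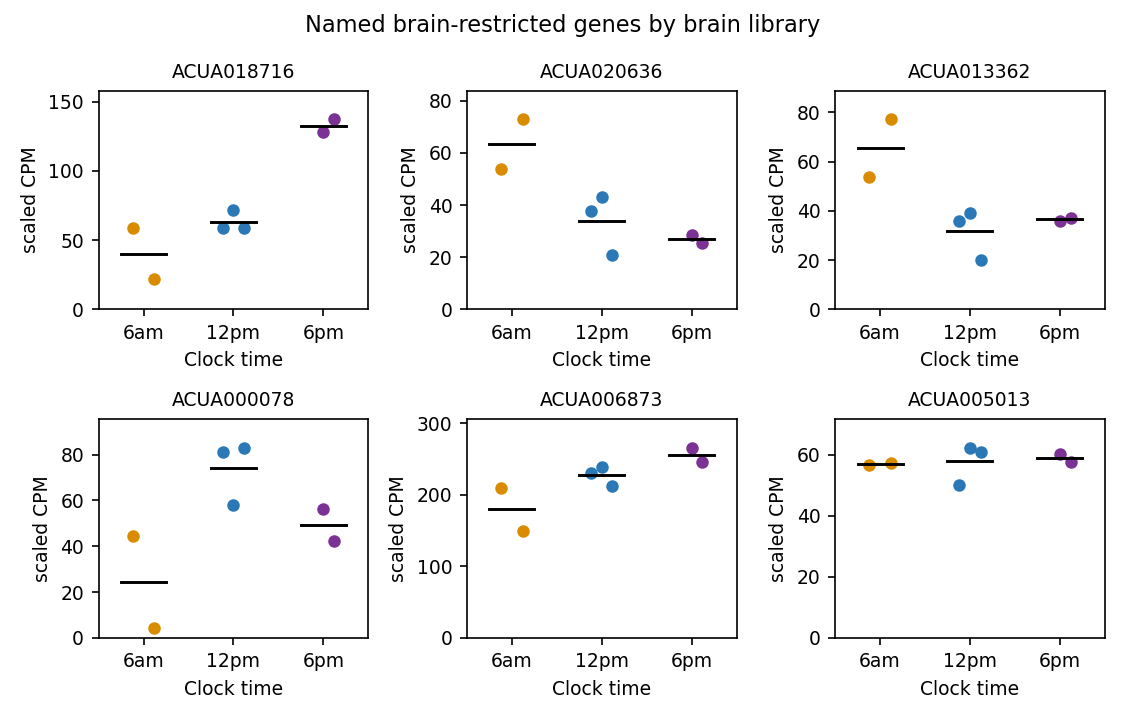
Scaled CPM (vertical axis, from 0) of 6 genes is plotted by clock time in brain, with 1 point per library and a bar for the mean of each clock time. ACUA018716 is highest in both 6pm libraries, ACUA020636 and ACUA013362 are highest in both 6am libraries, the 6am libraries of ACUA000078 lie at 44.4 and 4.21 scaled CPM, ACUA006873 is highest at 6pm, and ACUA005013 stays between 49.9 and 62.3.

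Among the most abundant genes, ACUA006873 had 266 and 246 scaled CPM at 6pm, against 209 and 150 at 6am, with 231, 239 and 212 at 12pm. Libraries of the 3 clock times did not overlap, and the log2 change at 6pm against 6am was 0.51 (SE 0.22, edgeR adjusted p = 0.362). ACUA003996 had 160 scaled CPM in both 6pm libraries, against 111 and 78.9 at 6am, a log2 change of 0.75 (SE 0.26, edgeR adjusted p = 0.227). ACUA003979 and ACUA010885 had log2 changes of 0.39 and -0.080 in the same contrast (SE 0.24 and 0.22). None of these 4 passed in any of the 3 contrasts.

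As a group the 100 genes leaned to one side between clock times, by small amounts. Libraries of 1 clock time also leaned, with 36 to 80 of the 100 genes higher in the second library of a pair. The SD within clock times of the median log2 deviation of the 100 genes was 0.15. The genes share the same libraries, so their counts are not independent results. With 2 or 3 libraries per clock time, the lean cannot be told apart from differences between libraries. At 12pm against 6am their median log2 change was -0.26, against 0.019 for the others at least as abundant, and 70 of the 100 were under 0, where 49.9% of all genes were. At 6pm against 6am the median was -0.097, against -0.014 for the others, and 60 were under 0 (51.8% of all genes). At 6pm against 12pm it was 0.19, against -0.0070, and 75 were over 0 (50.4% of all genes). By fitted means 56 were highest at 6am (36.7% of all genes), 9 at 12pm (34.6%) and 35 at 6pm (28.7%), while the lowest mean fell at 6am for 26 (35.0%), at 12pm for 54 (34.9%) and at 6pm for 20 (30.1%). The libraries did not overlap, with 12pm lower than 6am, for 33 genes (18.9% of all genes), and with 12pm higher for 10 (17.0%). For 6pm and 6am these counts were 28 lower (23.4%) and 19 higher (20.7%), and for 6pm and 12pm they were 6 lower (17.2%) and 21 higher (17.9%).

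**Figure D4:**
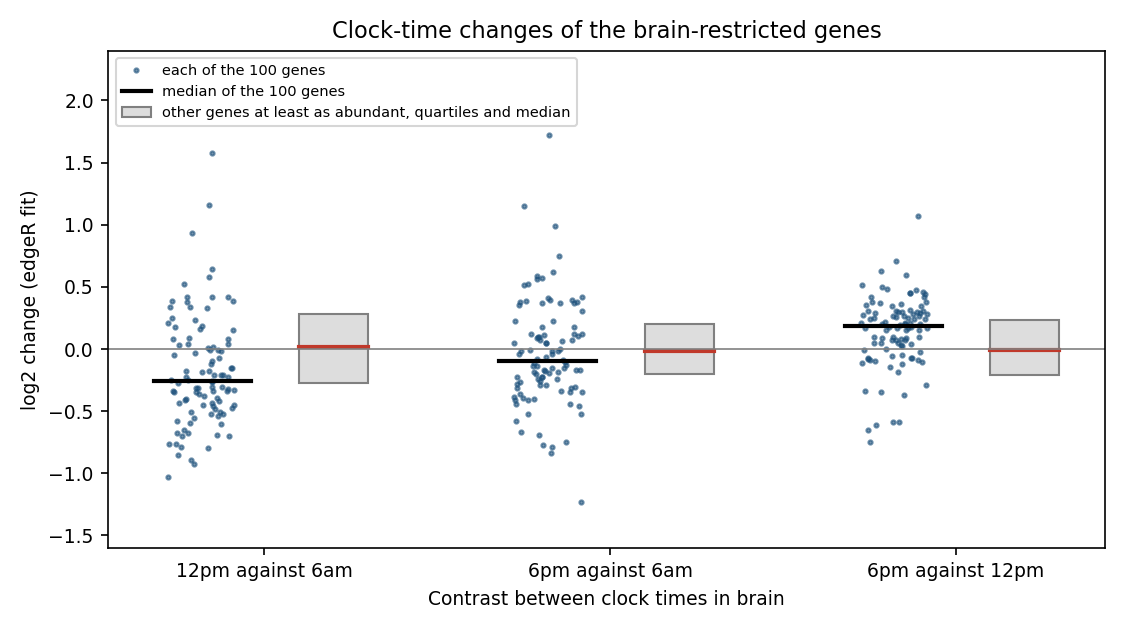
The log2 change of each of the 100 genes (points, with a black bar for their median) is set beside the quartile box and red median of the 6042 other genes at least as abundant in brain, for 3 contrasts between clock times. The medians of the 100 genes are -0.26, -0.097 and 0.19, while the boxes centre near 0.

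Single libraries stood out as well as clock times. In scaled CPM, 6am replicate 3 was the highest brain library for 51 of the 100 genes, where it was highest for 30.0% of the others. It was the lowest library for 11 of the 100 genes and for 31.6% of the others. The other 6am library, replicate 1, was highest for 1 of the 100 genes and for 5.79% of the others. The lowest library was 12pm replicate 1 for 42 genes (20.7% of the others) and 12pm replicate 3 for 29 (18.9%). The median deviation of the 100 genes from their own means, on the log2(scaled CPM + 1) scale, was 0.014 and 0.30 in the 6am libraries, -0.24, 0.087 and -0.073 at 12pm, and 0.085 and 0.086 at 6pm. Between the 6am libraries, 79 of the 100 genes were higher in replicate 3 than in replicate 1, where 47.5% of the others were. Between 12pm replicates 2 and 1, 80 were higher in replicate 2, where 48.8% of the others were.

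Without 6am replicate 3 the median log2 change at 12pm against 6am was -0.056, and at 6pm against 6am it changed sign to 0.051. With the outside-gene share as a covariate these medians were -0.064 and 0.080. That share was highest in 6am replicate 3, at 68.8%, against 64.5% in 6am replicate 1, with 61.6, 62.1 and 56.0% at 12pm and 61.5 and 57.2% at 6pm. It moved with clock time as well as with single libraries, and its part in the lean was not tested. The median at 6pm against 12pm stayed between 0.096 and 0.22 in all alternatives run, and was lowest without 12pm replicate 1.

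**Figure D5:**
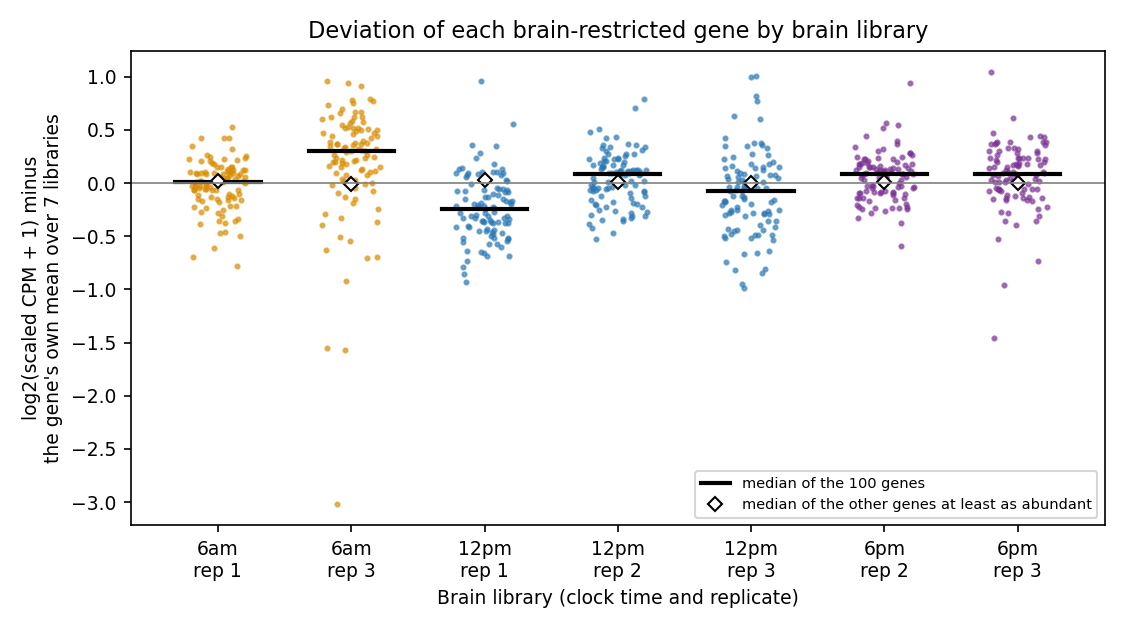
Each point is 1 of the 100 genes in 1 brain library, as log2(scaled CPM + 1) minus the gene's own mean over the 7 libraries, with a black bar for the median of the 100 genes and an open diamond for the median of the other genes at least as abundant. The bar is highest in 6am replicate 3, at 0.30, and lowest in 12pm replicate 1, at -0.24, while the diamonds stay close to 0 in every library.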

How the data were processed

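Brain and olfactory RNA of *Anopheles culicifacies* was extracted with trizol and made into NEBNext Ultra II libraries, per the labels. Each of the 15 libraries used has 1 table of raw counts deposited by the authors, and 8 further *Anopheles* libraries listed were not analysed here. The submitters' processing notes name bcl2fastq, FastQC, STAR and HTSeq; build, annotation and strand setting are not given, so counts of near-identical, overlapping or antisense genes are uncertain.

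In 14 of the 15 files text was overwritten, in 27 stretches of 64 to 208 characters. Damaged lines and repeated IDs were set to missing, which removed 245 genes (1.66%). Of the 100 genes, 14 lay within 1024 bytes before a stretch, where an altered digit can go unseen. Between 57.6 and 73.7% of reads were on lines naming no gene, left out of all totals.

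Brain libraries were fitted with edgeR 4.0.16 in R 4.3.3 (TMM, filterByExpr, robust quasi-likelihood F-test, clock time as factor) after a test on simulated data. The SE was taken as the log2 change's size divided by the root of F. Alternatives were DESeq2 1.42.0, its size factors, other filters, a replicate block, the share of reads outside genes as a covariate, and each library left out. Named are the 4 genes highest in brain, the 2 most and 2 least variable, those at the limits of the rule, and ACUA018716 as a call, ACUA013362, ACUA000078 and ACUA002387, chosen after their values were seen. The naming rule for clock-time calls gave none. Members, lists and tests were chosen with earlier results of these data known.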

Additional observations from a re-analysis of the deposited data

Results flagged for a closer look

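ACUA002387 was the gene among the 100 in which 1 brain library stood apart from the other 6 by a set rule. The rule asks that the gap to the nearest library, in scaled CPM, pass 0.568 of the whole range. ACUA002387 had 20.5 scaled CPM in 6am replicate 3, against 37.5 to 49.7 scaled CPM in the others, a gap of 0.582 of the range. The rule can miss wide gaps where the other libraries are spread. ACUA000078 was not flagged, at 4.21 scaled CPM in 6am replicate 3 against 42.2 to 83.0 in the others. Libraries of 3 clock times were pooled for this, since no clock time has enough libraries. Chance flags about 1 in 20 groups, and 7.75% of the others at least as abundant had such a library, against 1 of the 100.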

How the results depend on the processing

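The numbers of genes called among the clock times, at 12pm against 6am, at 6pm against 6am and at 6pm against 12pm were 0, 0, 1 and 0. DESeq2 gave 3, 2, 2 and 1. Among the clock times no filter gave 1. At 6pm against 6am the count was 0 with a mean of at least 50 counts, the covariate, the replicate block, or without genes near overwritten text, which drops ACUA018716 itself. Leaving out 1 library gave 0 to 11, 0 to 18, 0 to 5 and 0 to 1, each highest without 6am replicate 1 (the last also without 6am replicate 3), where 1 library alone stood for 6am and was assumed to vary like the other clock times. Over all genes, 265 passed among the clock times, against 595 with DESeq2, 164 with a mean of at least 50 counts, 108 with the covariate, 266 with the block and 102 to 1189 without 1 library. The block fit moved ACUA018716 to an adjusted p of 0.144 (edgeR) with a log2 change of 1.98. Replicate numbers were not taken to pair the libraries in the main fit. Deviations of same-numbered libraries from their clock-time means correlated at -0.143 to 0.458 over 5 pairs. The 2 libraries at 6am, and the 2 at 6pm, have mirror-image deviations by construction. These correlations therefore cannot decide whether the numbers pair the libraries. Membership kept 31 genes with a limit of 1 CPM, 15 with 5 CPM, 11 with every olfactory library under 2 CPM and 53 with medians, and 60 to 98 without 1 library. The median log2 change at 6pm against 6am, an alternative added after seeing the data, reversed to 0.080 with the covariate, and leaving out 1 library gave -0.19 to 0.051, reversed without 6am replicate 3. The median spread kept within 1.5 times its value, at 20.03 to 27.2%, in all alternatives run. Olfactory values rested on 4 to 35 reads per gene.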
